A study of Homo sapiens with 3 samples.

Results

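The 40 genes described here encode core proteins of the spliceosome, chosen as a fixed list of small nuclear ribonucleoprotein (snRNP) proteins and factors that work with them, out of 20162 protein-coding genes annotated on hg19. All 40 matched 1 gene each in GENCODE release 44 mapped to that assembly. YTHDC1, a nuclear reader of N6-methyladenosine in RNA, was profiled by ChIP-seq in A549, a cell line derived from an adenocarcinoma of the human lung. There was a single group, wild-type cells without knockdown, with 3 replicates whose reads the authors pooled before calling 6368 peaks. No value per replicate exists in that peak set, so every value below is that of 1 pooled experiment, with no error and no comparison between conditions, and no control library is named. The depth behind the peaks is unknown, and a gene without a called peak is not shown to lack YTHDC1. Of the epithelial marker genes, KRT8, KRT18 and EPCAM had a peak at a start and KRT19 and CDH1 had none, and PTPRC, CD3E and ALB, markers of other cell types, had none. A peak is not a measure of expression.

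The spliceosome removes introns from precursor messenger RNA. The U1 snRNP recognises the 5' splice site, the U2 snRNP pairs with the branch point after U2AF and SF1 have marked the 3' splice site, and the U4/U6.U5 tri-snRNP then joins to form the catalytic machine. Each major snRNP except U6 carries a ring of Sm proteins, and YTHDC1 itself is known to act on splicing through SR proteins. The genes were therefore ordered as U1, U2, tri-snRNP, Sm, 3' splice site and cofactor genes.

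A gene was taken to have a start peak if a peak overlapped, by 1 base or more, the 200 bases on either side of any of its annotated transcript starts. Of the 40 genes, 17 had one (42.5%), against 15.7% of all protein-coding genes (3163 of 20162). The count was 7 of 11 for U2, 2 of 3 for U1, 4 of 8 for Sm, 2 of 6 for the cofactors, 1 of 4 for 3' splice site recognition and 1 of 8 for the tri-snRNP. The tri-snRNP share, 12.5%, rests on 1 gene and was close to that of all protein-coding genes. The same 1 of 8 stood above all protein-coding genes at a q-value under 0.05 (8.96%) or with 1 start per gene (10.1%). So it did among peaks above the median strength (8.64%). It stood below them with windows of 100, 500 and 1000 bases (13.5%, 18.6% and 20.0%) and with basic transcripts only (13.8%). With the peak midpoint inside the window it was 0 of 8, against 10.8%. Subgroups of 3 to 11 genes were described and not tested. The number of starts differed too, since genes with more annotated starts offer more windows: the 40 genes had a median of 7 starts, and protein-coding genes had medians of 8 with a start peak and 5 without. With only the annotated 5' end of each gene, 14 of the 40 had a peak (35.0%), against 10.1% of protein-coding genes.

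**Figure D1:**
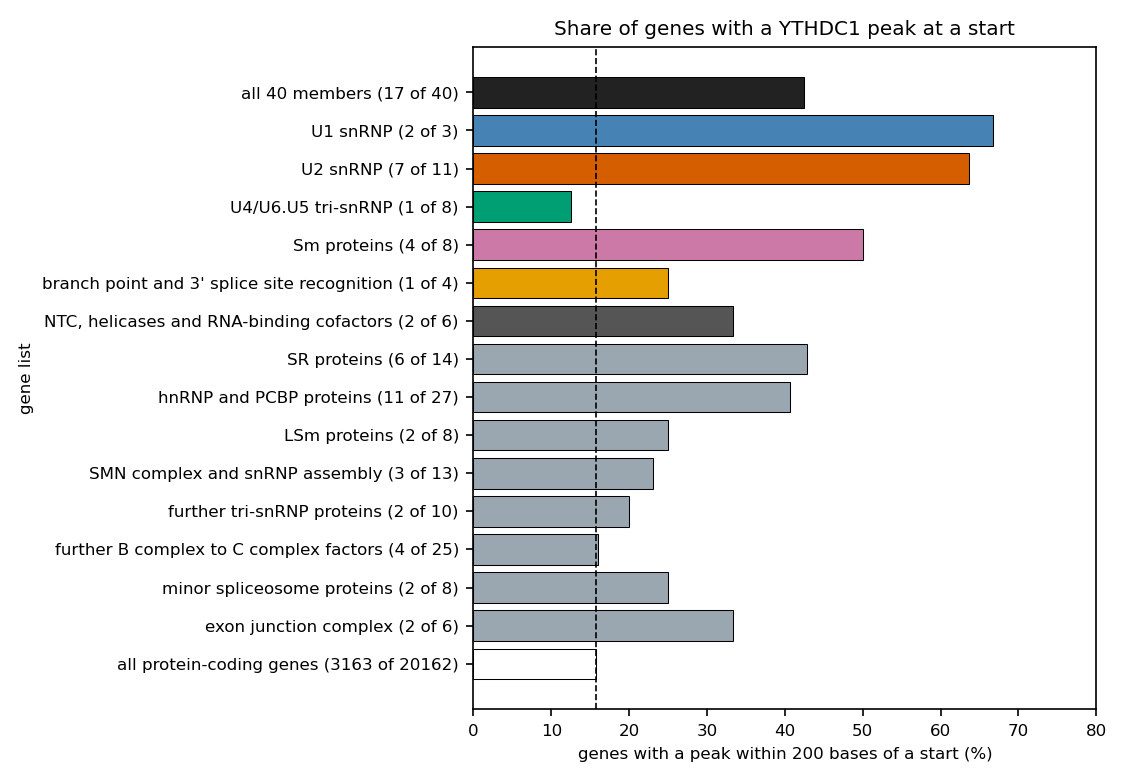
Percent of genes with a YTHDC1 peak within 200 bases of a start (x axis) for the 40 core spliceosome genes, their 6 subgroups and 8 lists of further splicing genes (y axis), with counts in brackets and all protein-coding genes at the bottom and as the dashed line. The U2 genes stand at 63.6%, and the tri-snRNP genes, with 1 of 8, lie close to the line at 15.7%.

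The strength of a peak is given as the value the peak caller wrote for it, read as −log10 of its q-value, so that 1.30 corresponds to a q-value of 0.05. Over the 17 genes the strongest start peak had a median of 1.33, within a range of 0.817 to 9.33, and the median over protein-coding genes with a start peak was 1.41. A q-value under 0.05 was reached at 10 of the 40 genes (25.0%), against 8.96% of all protein-coding genes. Among genes that had a start peak this was 10 of 17 (58.8%), against 57.1% over all such genes. The spliceosome genes thus had start peaks more often than protein-coding genes at large. The list was chosen with earlier results of these data known, and the difference was not tested. The share over protein-coding genes counts every annotated gene, active in A549 or not, and the part of activity in the difference was not tested. Of the 17 strongest start peaks, 10 were weaker than the median start peak, close to an even split. Their widths ran from 226 bases, the narrowest in the whole peak set, to 1083 bases, with a median of 444 against 376 over protein-coding genes with a start peak.

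**Figure D2:**
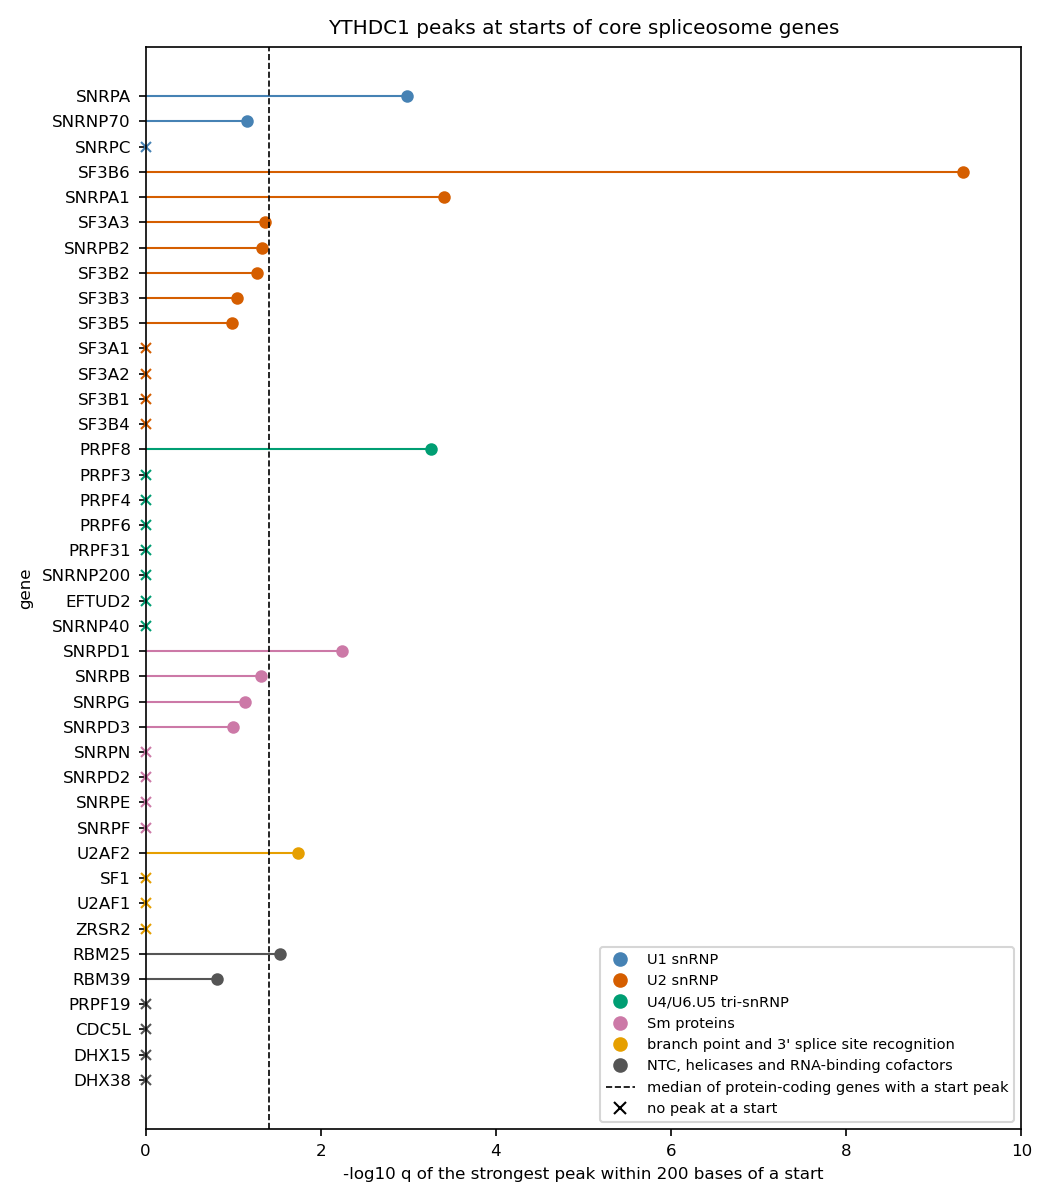
Strength of the strongest start peak (x axis, −log10 q) of each of the 40 genes (y axis), coloured by subgroup; crosses at 0 are genes with no peak at a start, and the dashed line is the median of 1.41 over protein-coding genes with one. SF3B6 stands apart at 9.33, the next highest are SNRPA1, PRPF8 and SNRPA at 2.98 to 3.41, and 7 of the 8 tri-snRNP genes are crosses.

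Among the U1 genes, SNRPA and SNRNP70 had a start peak. SNRPA encodes the U1-A protein, which binds a stem-loop of U1 RNA, and its peak on chromosome 19 (41256128 to 41256382) was 255 bases wide with a −log10 q of 2.98, above 91.0% of genes with a start peak. This peak lay upstream, 160 bases from the nearest SNRPA start and at positions -980 to -726 from the canonical one, and also within 200 bases of a start of ACTMAP, a gene on the other strand. SNRNP70, encoding U1-70K, another protein bound to U1 RNA, had a peak of 257 bases over the end of exon 1 and intron 1 (chromosome 19, 49588757 to 49589013), with a −log10 q of 1.16. SNRPC, encoding the U1-C protein that acts at the 5' splice site, had its nearest peak 520346 bases from a start. Both U1 peaks were narrow, with 17.5% or fewer of the genes with a start peak having a narrower one.

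The U2 genes held the largest number of start peaks, 7 of 11. The strongest was at SF3B6, encoding p14, the SF3B subunit that sits next to the branch point adenosine. This peak spanned 765 bases on chromosome 2 (24298984 to 24299748) with a −log10 q of 9.33, a q-value of 4.73e-10. It ranked 49th of all 6368 peaks, and 16 protein-coding genes had a stronger start peak. It covered the canonical start, running from position -552 to 212 relative to it, over exon 1 and into intron 1 of 4 exons. The promoter is shared, since a start of FAM228B on the other strand also lay within 200 bases, and a second peak there (24299818 to 24300102, −log10 q 2.15) was 575 bases beyond the SF3B6 gene.

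SNRPA1, encoding U2-A', a protein of the U2 particle that pairs with U2-B'', had the next strongest peak (chromosome 15, 101834866 to 101835366, 501 bases, −log10 q 3.41), which began 87 bases downstream of the canonical start and covered the end of exon 1. Its partner gene SNRPB2, encoding U2-B'', carried a weaker peak in the same place, 24 to 435 bases downstream (chromosome 20, 16710695 to 16711106, −log10 q 1.33). SF3A3, a subunit of SF3A, had 1.36 (chromosome 1, 38455649 to 38456157), with the peak mostly upstream. Of the SF3B complex, SF3B3 had 1.04 and SF3B5 0.985, both with a q-value above 0.05. SF3B5 has a single exon of 690 bases, and the peak reached 153 bases into it. SF3B2 was the only one of the 40 genes with more than 1 start peak, a number reached by 4.74% of protein-coding genes with a start peak. Its peaks (chromosome 11, 65819355 to 65819923 and 65820002 to 65820313) had 1.08 and 1.27 and lay on either side of the exon 1 end. SF3A1, SF3A2, SF3B1 and SF3B4 had none, and their nearest peaks lay 83228, 45175, 49327 and 559567 bases from a start. Start peaks were thus found at 4 of the 6 SF3B genes and at 1 of the 3 SF3A genes, beside 15.7% of all protein-coding genes. Of those SF3B genes, only SF3B6 had a peak with a q-value under 0.05. SF3B1, the subunit that is often mutated in blood cancers, had no start peak.

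The sequences of the 4 strongest start peaks are shown with the promoter motifs searched in them, a feature the list did not use. The central 300 bases of the SF3B6, SNRPA1 and PRPF8 peaks and the whole SNRPA peak are given 5' to 3' on the strand of the gene, from GRCh37 (the assembly that hg19 names), with motif matches in capitals. The promoters of CDC5L and DHX15, 250 bases before to 50 after the canonical start, are given as examples of genes with no start peak. Capitals mark CCGGAA (the core bound by ETS factors), GGGCGG (the GC box bound by SP1), CCAAT, AAGATGGC (YY1), GCGCATGC (NRF1), TATAAA and TGACGTCA (the cAMP response element), on either strand. The longer ETS site CCGGAAGT contains the core.
SF3B6 peak, chr2:24299216-24299515, minus strand: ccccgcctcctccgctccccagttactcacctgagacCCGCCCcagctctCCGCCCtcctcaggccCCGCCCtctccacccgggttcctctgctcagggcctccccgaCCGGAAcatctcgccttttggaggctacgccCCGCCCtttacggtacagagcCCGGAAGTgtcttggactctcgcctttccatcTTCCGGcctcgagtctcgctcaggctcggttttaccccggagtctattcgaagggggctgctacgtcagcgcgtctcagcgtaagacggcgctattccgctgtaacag
SNRPA1 peak, chr15:101834966-101835265, minus strand: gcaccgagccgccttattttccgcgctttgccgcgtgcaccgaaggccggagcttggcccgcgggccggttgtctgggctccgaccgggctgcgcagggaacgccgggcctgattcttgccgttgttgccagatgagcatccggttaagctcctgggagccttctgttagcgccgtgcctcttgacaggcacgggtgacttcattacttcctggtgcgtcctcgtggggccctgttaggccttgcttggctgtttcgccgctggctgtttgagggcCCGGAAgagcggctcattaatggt
PRPF8 peak, chr17:1587723-1588022, minus strand: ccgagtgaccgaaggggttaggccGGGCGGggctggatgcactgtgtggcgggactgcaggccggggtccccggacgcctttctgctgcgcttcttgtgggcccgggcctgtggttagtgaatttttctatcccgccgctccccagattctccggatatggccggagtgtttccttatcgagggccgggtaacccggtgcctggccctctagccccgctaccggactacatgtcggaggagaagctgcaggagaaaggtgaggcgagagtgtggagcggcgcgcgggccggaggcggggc
SNRPA peak, chr19:41256128-41256382, plus strand: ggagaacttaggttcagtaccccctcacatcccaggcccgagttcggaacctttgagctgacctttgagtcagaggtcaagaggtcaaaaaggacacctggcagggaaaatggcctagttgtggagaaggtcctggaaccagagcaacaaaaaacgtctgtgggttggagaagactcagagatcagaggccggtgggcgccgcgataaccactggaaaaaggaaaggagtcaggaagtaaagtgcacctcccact
CDC5L promoter, chr6:44355193-44355492, plus strand: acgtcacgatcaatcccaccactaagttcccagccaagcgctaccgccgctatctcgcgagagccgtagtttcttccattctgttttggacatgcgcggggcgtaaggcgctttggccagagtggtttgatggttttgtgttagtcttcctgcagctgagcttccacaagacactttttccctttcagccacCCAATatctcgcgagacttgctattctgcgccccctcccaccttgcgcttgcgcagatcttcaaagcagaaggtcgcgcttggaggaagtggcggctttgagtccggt
DHX15 promoter, chr4:24586128-24586427, minus strand: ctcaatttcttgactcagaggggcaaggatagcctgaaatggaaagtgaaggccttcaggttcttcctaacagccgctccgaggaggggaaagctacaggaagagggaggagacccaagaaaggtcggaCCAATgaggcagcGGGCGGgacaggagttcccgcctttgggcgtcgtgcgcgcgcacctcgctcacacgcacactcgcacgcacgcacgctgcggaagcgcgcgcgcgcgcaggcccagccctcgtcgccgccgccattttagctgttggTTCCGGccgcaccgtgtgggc

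The ETS core was present in these windows of SF3B6, SNRPA1 and DHX15, and SF3B6 also held the longer site. The GC box was in the windows of SF3B6, PRPF8 and DHX15, and CCAAT in those of CDC5L and DHX15. None of the motifs was found in the SNRPA peak. Over the promoters of all 40 genes, the core CCGGAA was in 24 (60.0%), against 22.8% of 19881 protein-coding promoters of the same length, and CCGGAAGT was in 11 (27.5%), against 6.16%. Within the list, 11 of the 17 genes with a start peak had the core and 13 of the 23 without, and the longer site was in 6 and 5. Over all protein-coding promoters with a start peak, the core was in 35.3% and the longer site in 10.8%. These differences were not tested. CCAAT was in 19 of the 40 promoters (47.5%, against 36.0%), and the GC box in 24 (60.0%, against 61.4%). The GC box was in 7 of the 17 genes with a start peak and in 17 of the 23 without one, whereas over all protein-coding genes with a start peak it was in 73.6%. AAGATGGC was in 5 of the 40 (12.5%, against 4.05%), GCGCATGC in 3 (7.50%, against 4.27%), TATAAA in 1 (2.50%, against 9.62%) and TGACGTCA in 1 (2.50%, against 2.68%). A match describes the letters in the window and is not a measured binding site.

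The tri-snRNP genes had start peaks at 1 of 8. PRPF8 encodes the largest protein of the U5 snRNP, which lies at the catalytic centre, and had a peak of 626 bases on chromosome 17 (1587560 to 1588185) with a −log10 q of 3.26, above 93.2% of genes with a start peak. It ran from position -24 to 601 relative to the canonical start, over exons 1 and 2, and a start of a lncRNA gene (ENSG00000277597) lay within 200 bases of it. The other 7 had none. They include SNRNP200 and EFTUD2, the helicase and the GTPase of U5, SNRNP40, a U5 protein, PRPF3, PRPF4 and PRPF31, which belong to U4/U6, and PRPF6, which bridges U5 and U4/U6. Their nearest peaks were between 23879 bases (EFTUD2) and 138102 bases (PRPF3) from a start. Of 10 further tri-snRNP genes, which are not among the 40, 2 had a start peak, CD2BP2 and DDX23, with 1.06 and 0.938. The 2 lists together thus had a start peak at 3 of 18 genes, close to the 15.7% of all protein-coding genes.

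Of the Sm genes, which encode the ring shared by the U1, U2, U4 and U5 particles, 4 of 8 had a start peak. SNRPD1 had the strongest (chromosome 18, 19192380 to 19192756, 377 bases, −log10 q 2.24), SNRPB had 1.32 (chromosome 20, 2450901 to 2451350), SNRPG 1.14 (chromosome 2, 70520577 to 70520802) and SNRPD3 0.999 (chromosome 22, 24951600 to 24952134). Those of SNRPG and SNRPD3 had q-values above 0.05, and the SNRPD3 peak lay within 200 bases of starts of GUCD1 and of ENSG00000286070, another protein-coding gene. No peak in the set was narrower than that of SNRPG, 226 bases. SNRPD2, SNRPE, SNRPF and SNRPN had no start peak. SNRPN, the imprinted relative of SNRPB that is best known from brain, was the Sm gene farthest from a peak, at 820206 bases. SNRPE was the closest of the genes without a start peak, at 7616 bases, and that peak (chromosome 1, 203840369 to 203840631, −log10 q 1.34) lay 89 bases beyond the 3' end of the gene.

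Of the genes for 3' splice site recognition, U2AF2 alone had a start peak. U2AF2 encodes the large U2AF subunit, which binds the polypyrimidine tract, and its peak was the widest of the 40 genes, with 1083 bases on chromosome 19 (56165986 to 56167068) and a −log10 q of 1.74. Its width exceeded that at 98.1% of protein-coding genes having a start peak. U2AF1, the small subunit that reads the AG at the intron end, ZRSR2, its relative in the minor spliceosome, and SF1, which binds the branch point, had none, with the nearest peak 55320, 297325 and 76172 bases from a start, in that order. Of the cofactors, the RNA-binding protein genes RBM25 (chromosome 14, 73524978 to 73525421, −log10 q 1.53) and RBM39 (chromosome 20, 34329668 to 34329962, 0.817) had a start peak. The RBM39 peak was the weakest of the 17, with a q-value of 0.153, and this gene has 44 annotated starts, the most of the list. PRPF19 and CDC5L, core proteins of the NTC complex, and the helicase genes DHX15 and DHX38 had none, and DHX15 was the gene farthest from any peak, at 2464157 bases.

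**Figure D3:**
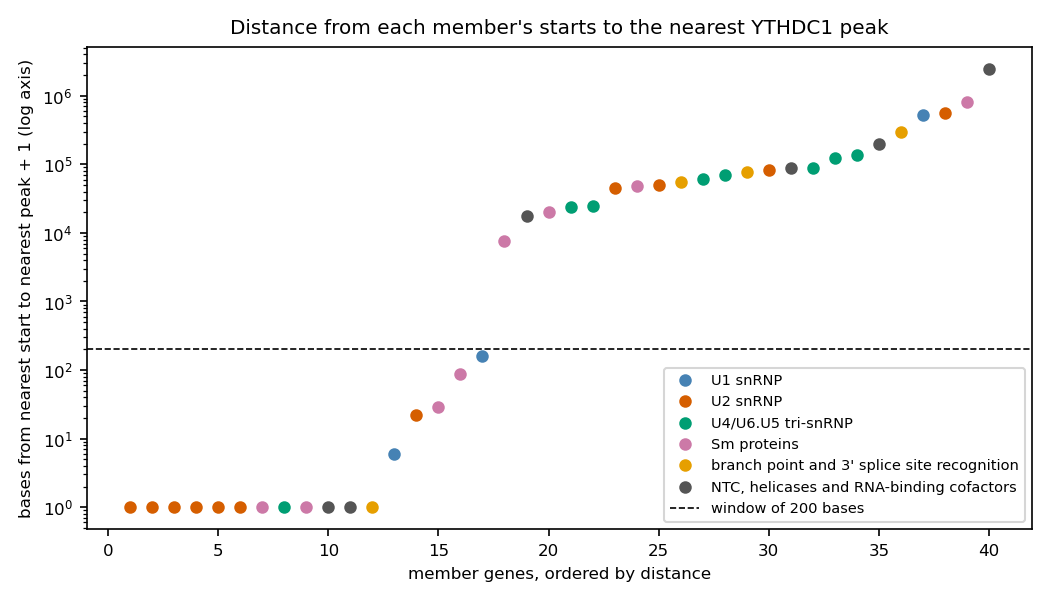
Distance in bases, plus 1, from the nearest annotated start of each of the 40 genes to the nearest YTHDC1 peak (y axis, log scale), with genes ordered by distance (x axis), coloured by subgroup, and the 200-base window as the dashed line. The genes with a start peak lie at 0 to 160 bases, and the next gene is at 7616.

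In the 17 genes with a start peak the distance from a start to the peak was 0 bases in 12 (70.6%), against 66.6% of protein-coding genes with a start peak. It was at most 160 bases, at SNRPA, and no gene lay between this and SNRPE at 7616. Over all protein-coding genes without a start peak, 10.8% of 16999 had a peak within 7000 bases of a start, a distance chosen after these values were seen. The median distance was 76172 bases over the 23 spliceosome genes without a start peak and 105934 bases over all such protein-coding genes. Windows of 500 and 1000 bases gave 17 genes as well.

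Inside the genes, outside all start windows, 1 of the 40 had a peak (2.50%), against 8.66% of protein-coding genes. This was SNRPA, with a peak of 320 bases in intron 1 (chromosome 19, 41257472 to 41257791, −log10 q 1.15), 364 to 683 bases downstream of the canonical start and again within 200 bases of a start of ACTMAP. None of the 40 had a body peak with a q-value under 0.05, against 4.41% of protein-coding genes. Longer genes have more room for such a peak. The median gene length was 20571 bases in the 17 genes with a start peak and 24932 bases in the 23 without, and in all protein-coding genes it was 35284 and 25775 bases. SNRPN, the longest gene of the list with 155087 bases, had no peak inside it.

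The midpoint of the strongest start peak lay downstream of the canonical start in 12 of the 17 genes (70.6%), with a median of 183 bases downstream and a range of -853 (SNRPA) to 367 bases (RBM39). Of the 2731 protein-coding genes with their midpoint within 1000 bases of the canonical start, 63.4% were downstream, with a median of 122 bases, so the share in the list was close to that of start peaks in general. The canonical start itself was covered in 8 of the 17 (47.1%), against 37.0% of protein-coding genes with a start peak. The last base of exon 1 of the canonical transcript lay inside a start peak in 13 of the 16 such genes with more than 1 exon (81.2%), against 42.2% of 3086 protein-coding genes. The exceptions were SNRPA, SF3A3 and SF3B2. This measure was chosen after the positions of the peaks were seen. Exon 1 was also shorter in these genes, with a median of 134.5 bases (range 73 to 320) against 179. The peaks of the 17 genes were wider, with a median of 444 bases against 376. The shares of 37.0% and 42.2% also count genes with the midpoint more than 1000 bases from the canonical start. None of the 17 genes was of that kind. The part of each of these in the differences was not tested.

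The exon 1 end is shown for the strongest start peak of each of 4 genes in which the peak covered it, with the last 10 bases of exon 1 in capitals and the first 20 of intron 1 in lower case, from GRCh37. Every one of these introns begins with gt, the usual first bases of an intron at the 5' splice site that U1 recognises.
SF3B6, chr2:24299050-24299079, minus strand: GAGGGCGAACgtgagtatcgggtgttctgc
SNRPA1, chr15:101835282-101835311, minus strand: GACCTCCGGGgtgagtccgggggcgtgggc
PRPF8, chr17:1588054-1588083, minus strand: GGCCTGTGGGgtgcgtggcaggcgtttaag
SNRPD1, chr18:19192395-19192424, plus strand: AGCTCGTGAGgtgagggagtgaccaagcag

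**Figure D4:**
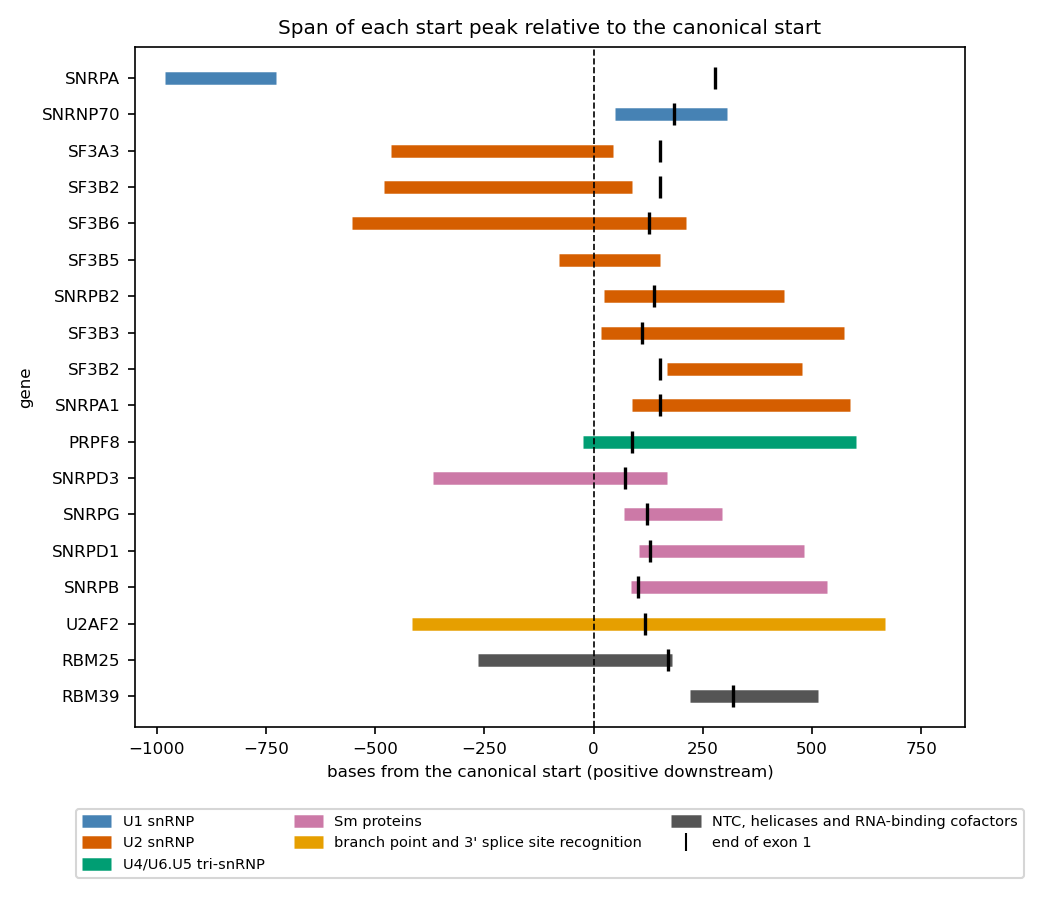
Span of each of the 18 start peaks of the 17 genes (bars, coloured by subgroup) in bases from the canonical start (x axis, positive downstream, dashed line at the start), 1 peak per row (y axis); the black tick marks the end of exon 1, and SF3B5 has 1 exon and no tick. The tick lies inside the bar in 13 genes, and the SNRPA bar lies apart, at -980 to -726.

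Base composition did not separate the genes with a start peak from those without. The promoter GC share had a median of 61.3% in both sets, with ranges of 43.0 to 72.3% in the 17 genes and 53.7 to 75.7% in the 23. The ratio of observed to expected CpG had medians of 0.943 and 0.955. Over all protein-coding genes these medians were 66.7% and 0.862 with a start peak, and 63.0% and 0.748 without. The start peaks of the 17 genes had a median GC share of 61.7% (52.9 to 72.0%), against 66.7% for the start peaks of protein-coding genes. A start of another gene lay within 200 bases of the peak in 5 of the 17 (29.4%), against 34.5% of protein-coding genes with a start peak. For these 5 (SNRPA, SNRPB2, SF3B6, PRPF8 and SNRPD3) a peak cannot be assigned to 1 of the genes. Genes with a protein-coding start on the other strand within 1000 bases had a start peak in 4 of 12 cases in the list (33.3%), and the others in 13 of 28 (46.4%). Over all protein-coding genes these shares were 19.4% and 15.4%.

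The closest other lists were the regulators of splice site choice. SR proteins, which promote exon recognition, had a start peak at 6 of 14 genes (42.9%), led by SRSF6 with a −log10 q of 4.21, and the hnRNP and PCBP proteins at 11 of 27 (40.7%), led by PCBP2 with 11.1. Their medians were 1.79 and 1.44, against 1.33 for the core genes. Both shares were close to the 42.5% of the core genes, and differences between lists were not tested. Body peaks were found at 2 of 14 SR, 5 of 27 hnRNP and PCBP and 1 of 40 core genes. The share over all protein-coding genes was 8.66%. These counts are small, and gene length was not taken into account.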

How the data were processed

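YTHDC1 ChIP-seq was deposited as 1 peak set for 3 replicates of 1 group. Per the methods, the authors aligned reads to hg19, combined the replicates and ran MACS2 in broad mode (q-value 0.1, broad cutoff 0.25). The methods name Bowtie2 and the submitters' processing notes BWA, and the aligner is not settled. No control library is named, and the peak names show a merging step that is not described. The deposited value of each peak is taken to be −log10 q, which no source states: the lowest, 0.61, lies just above 0.602, −log10 of the broad cutoff. It has no replicate error.

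Peaks (6368, counted from base 1) were overlapped with GENCODE release 44 starts on GRCh37, in which the second copies of genes shared by X and Y were left out. The canonical transcript was that tagged by Ensembl. Promoters ran from 250 bases before to 50 after the canonical start. The overlap code was tested on simulated peaks. The 40 genes and the other lists were chosen with earlier results of these data known, so counts stand beside the share over all protein-coding genes, with no test. Every one of the 40 genes is accounted for, and up to 4 genes with the strongest start peak are named per further list. A marker gene of another cell type is not reported here. Alternatives varied the window, the starts, the overlap and the peaks. Python 3.11.15, numpy 2.4.6, pandas 2.3.3 and matplotlib 3.10.9 were used.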

Additional observations from a re-analysis of the deposited data

How the results depend on the processing

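The count of 17 core spliceosome genes with a start peak was 16 with a window of 100 bases or with basic transcripts only, where SNRPA was lost, and 17 with windows of 500 and 1000 bases. It was 14 with 1 start per gene, 11 with the peak midpoint inside the window, 10 among peaks with a q-value under 0.05 and 8 among peaks above the median strength. The share of all protein-coding genes was 13.5%, 13.8%, 18.6%, 20.0%, 10.1%, 10.8%, 8.96% and 8.64% in that order. With the midpoint in the window SNRPA, SNRPB2, SF3B3, PRPF8, SNRPB and SNRPD1 were lost. U1 then had 1, U2 5, the tri-snRNP 0 and Sm 2. With 1 start per gene SF3B2, U2AF2 and RBM39 were lost, leaving 6 for U2, 0 for 3' splice site recognition and 1 for the cofactors. U1 had 1 with the window of 100 bases and with basic transcripts. At a q-value under 0.05 U1 had 1, U2 4, Sm 2 and the cofactors 1, and above the median strength U1 had 1, U2 3, Sm 1 and the cofactors 1. The median −log10 q of the start peaks was 1.99 and 2.61 under these filters, which remove weak peaks by construction. The number of genes with a body peak was 0 at a q-value under 0.05, against 4.41% of protein-coding genes, and 4 with genes extended by 1000 bases (SNRPA, SF3B6, PRPF8 and SNRPE), against 11.8% of protein-coding genes. No paired analysis was possible because there is 1 group and the replicates were pooled before peak calling, and no replicate could be left out for the same reason.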

Other observations

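Beyond the core genes and the regulators of splice site choice, 6 further lists of splicing genes were counted. Factors that join or act between the B and C complexes of the spliceosome had a start peak at 4 of 25 genes (16.0%), close to the 15.7% of all protein-coding genes. RBM22, which contacts U6 RNA and the intron, had a −log10 q of 2.04 (chromosome 5, 150080428 to 150080667), AQR, an intron-binding helicase, 1.64, PPIL1 0.993 and CWC25 0.830. The SMN complex and other factors that load Sm proteins onto small nuclear RNA had 3 of 13, with CLNS1A, which encodes the chaperone pICln, at 2.40 (chromosome 11, 77348515 to 77348941), DDX20 at 1.02 and GEMIN7 at 0.738.

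The LSm genes, whose products form the ring of U6 in place of Sm proteins, had 2 of 8 (25.0%), LSM6 (1.64) and LSM5 (1.58). Proteins of the minor spliceosome, which removes a rare class of introns, had 2 of 8, with PDCD7 at 2.14 under a peak of 942 bases (chromosome 15, 65425566 to 65426507) and SNRNP25 at 0.832. The exon junction complex, deposited on spliced RNA, had 2 of 6 (33.3%), CASC3 (1.20) and RNPS1 (0.886). Each of these 2 counts rests on few genes, beside 15.7% of all protein-coding genes. At a q-value under 0.05, 2 of 8 LSm, 1 of 8 minor spliceosome and 0 of 6 exon junction genes remained. The share of all protein-coding genes was then 8.96%. Over the 111 genes of all 8 further lists, 32 had a start peak (28.8%), against 15.7% of all protein-coding genes. This total includes the SR genes (6 of 14) and the hnRNP and PCBP genes (11 of 27) described above. These lists were counted and not tested.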
